A study of Mus musculus with 6 samples.

Results

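The unfolded protein response and the integrated stress response were followed in differentiating muscle cells through 10 genes, *Ern1*, *Eif2ak3*, *Atf6*, *Xbp1*, *Atf4*, *Atf5*, *Atf3*, *Ddit3*, *Trib3* and *Hspa5*. They were taken by gene symbol from the 54525 gene rows of the deposited count files, and 1 row was used for each. The cells were C2C12, an established mouse myoblast line, wild type (WT) in every library and labelled as without treatment. The 3 D0 libraries came from myoblasts at day 0, and the 3 D5 libraries came from myotubes after 5 days of differentiation. According to the study's methods, myoblasts were grown with fetal bovine serum and differentiated with horse serum, so differentiation and the change of medium cannot be told apart.

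The unfolded protein response is set off when misfolded proteins build up in the endoplasmic reticulum (ER). Its sensors sit in the ER membrane, and each acts through its own transcription factor. The integrated stress response meets it at the phosphorylation of eIF2α, which lowers protein synthesis in general while favouring translation of *Atf4* mRNA. In muscle, both pathways are known to be engaged while myoblasts differentiate and fuse. RNA levels do not show sensor cleavage, kinase activity, mRNA splicing or translation, which are the main points of control in these pathways.

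Gene counts per library were between 36555048 and 40895840 at D0, and the D5 libraries were shallower, with 25449759 to 25811300. All 8 myotube markers rose at D5 (*Myog* from 2.76 ± 0.367 to 515 ± 3.25 CPM, SD, n = 3 per group), all 3 myoblast markers fell, and *Myod1*, *Myf5* and *Pax7* were still detected at D5. The 8 proliferation markers, *Mki67* and *Cdk1* among them, all fell, from a summed level of 1014 to 1038 TPM over the D0 libraries to 30.6 to 34.0 TPM over the D5 libraries. Their part in the results below was not tested. Of 12 markers of endothelial, immune, fat, bone, cartilage and epithelial cells, only *Cd68* had enough counts to be tested, *Adgre1* and *Acan* were at 0 counts in every library, and the 12 together summed to 8.83 to 9.45 TPM at D0 and 5.32 to 6.62 TPM at D5. In these bulk samples, fewer cells that express a gene and less RNA of it per cell cannot be told apart.

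Most of the 10 genes were lower in myotubes. The RNA of *Eif2ak3*, which encodes the ER kinase PERK, of the stress-induced transcription factor *Atf3* and of the pseudokinase gene *Trib3* fell to 24.6%, 24.1% and 31.6% of the D0 level. *Atf5*, *Ddit3*, *Hspa5* and *Atf4* fell by less, to between 66.6% and 83.9% of D0. *Atf6* and *Ern1*, which encode the other two sensors, rose 1.35-fold and 1.17-fold relative to the bulk of the genes (scaling to spike-ins turned both values negative, as given below), and *Xbp1* did not pass the test.

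D5 was compared with D0 in edgeR's quasi-likelihood test on the counts of 16290 genes that passed its filter on low counts, with TMM scaling and Benjamini-Hochberg adjustment over these genes. The labels give 3 samples per group and do not say how their cultures were kept apart, so the p-values measure the spread between these samples. All 10 genes passed the filter, with from 134 counts (*Atf3*, D5 replicate 3) to 31114 counts (*Hspa5*) in a library. With an adjusted p under 0.05 as the threshold, 7 of the 10 genes were lower at D5, 2 were higher and 1 was not called. Over all genes tested, 82.9% were called, 40.8% lower and 42.2% higher, so a call by itself was common in this comparison. All D5 libraries were lower than all D0 libraries in CPM (counts per 1000000 counts, with TMM library sizes) for 7 of the 10 genes and for 41.1% of all genes tested, and above for 2 of the 10 and for 42.2% of all genes. The median log2 fold change of the 10 genes was -0.40, against 0.0022 over all genes tested, whose lower and upper quartiles were -0.63 and 0.71. *Eif2ak3*, *Atf3* and *Trib3* fell by more than 1 on the log2 scale, as did 16.0% of all genes tested, and *Eif2ak3* and *Atf3* fell by more than 2, as did 6.16%.

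Scaling mattered for the direction of the smaller changes. With library sizes taken from the 92 ERCC spike-ins, synthetic RNAs added to each sample, the median log2 fold change over all genes moved by about 0.58 downward, to -0.58, and 67.4% of calls were lower at D5 against 49.2% with TMM. The share of counts on spike-ins ranged from 0.720% to 2.09% in the D5 libraries and from 0.726% to 0.859% in the D0 libraries, and the standard error of *Xbp1* was 0.52 with this scaling against 0.036 with TMM. *Eif2ak3*, *Atf3* and *Trib3* were still called lower under this scaling (log2 fold changes of -2.57, -2.57 and -2.21), the other 7 genes were not called, and the fitted values of *Atf6*, *Ern1* and *Xbp1* turned negative (-0.12, -0.36 and -0.53). The changes given below are therefore relative to the bulk of the genes, as TMM sets it.

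**Figure D1:**
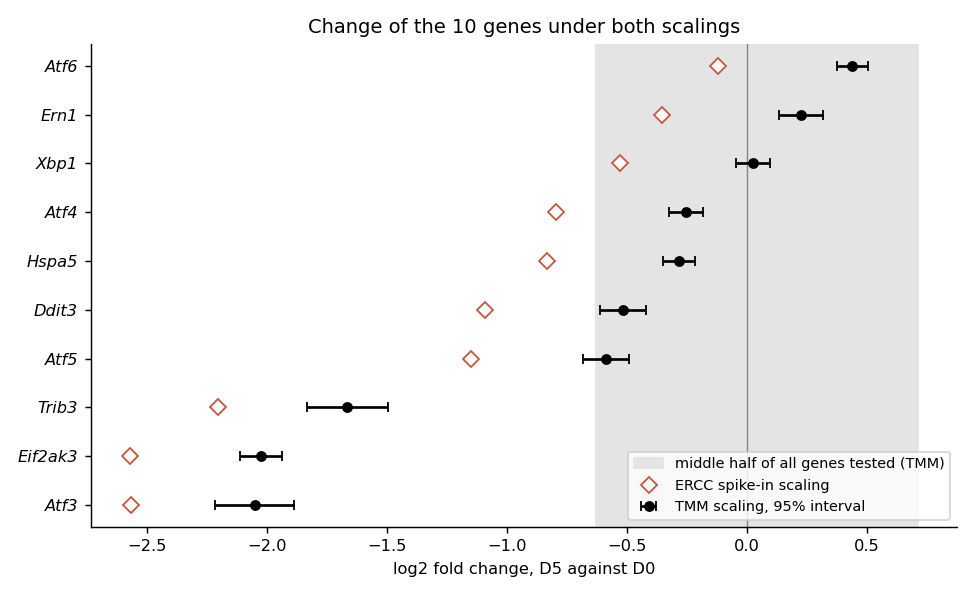
Log2 fold change of each of the 10 genes, D5 against D0, with TMM scaling (filled points, bars are 95% intervals of the edgeR fit) and with ERCC spike-in scaling (open diamonds). The grey band spans the lower to the upper quartile of all 16290 genes tested with TMM. *Atf3*, *Eif2ak3* and *Trib3* lie left of the band under both scalings, while *Atf6* and *Ern1* lie right of 0 with TMM and left of it with the spike-ins.

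The sensors of the ER differed from each other in direction. *Eif2ak3* (chr6:70844515-70905245, plus strand of GRCm38) encodes PERK, the ER kinase that phosphorylates eIF2α. It was at 98.3, 101 and 96.6 CPM in D0 replicates 1, 2 and 3 and at 24.3, 25.3 and 23.1 CPM in D5 replicates 1, 2 and 3. The groups lay far apart and the libraries within each group were close together, with coefficients of variation of 2.28% at D0 and 4.56% at D5. The log2 fold change was -2.02 (SE 0.044, adjusted p = 4.39e-27 in edgeR's test), a 4.07-fold fall. Of its exonic length, 8.05% is shared with the opposite-strand gene *Gm43292*, and since the strand setting of the counting is not stated, reads from both cannot be told apart there.

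*Atf6* (chr1:170704674-170867771, minus strand) encodes the sensor that is cut in the Golgi apparatus to release a transcription factor. Its level was 142, 148 and 144 CPM in the D0 libraries and 196, 198 and 192 CPM in the D5 libraries. All D5 libraries were above all D0 libraries, with the log2 fold change at 0.44 (SE 0.033, adjusted p = 2.68e-13 in edgeR's test). *Ern1* (chr11:106394650-106487852, minus strand), which encodes the kinase and endoribonuclease IRE1α, was at 35.4, 36.2 and 37.4 CPM at D0 and 44.3, 40.7 and 42.4 CPM at D5. The groups did not overlap in CPM but the difference was small, 0.22 on the log2 scale (SE 0.046, adjusted p = 5.19e-05 in edgeR's test). In TPM (transcripts per 1000000, which divide counts by exonic length and by the sum over all genes), the *Ern1* groups overlapped, at 14.7, 15.4 and 16.0 at D0 and 17.2, 15.2 and 16.0 at D5.

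*Xbp1* (chr11:5520659-5525893, plus strand) encodes the transcription factor that IRE1α switches on by cutting a short stretch out of its mRNA in the cytoplasm. That stretch is shown because the deposited counts hold one value per gene and do not separate mRNAs with and without it. The stretch of 26 bases in exon 4 of 5 (chr11:5524279-5524304, GRCm38) is in capitals, with 12 bases of the exon on each side.
*Xbp1*, chr11:5524267-5524316, plus strand: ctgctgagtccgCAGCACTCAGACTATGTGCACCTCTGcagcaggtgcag
With the stretch in place the reading frame from the annotated start codon runs for 267 codons, and without it the frame shifts and runs for 371 codons. Summed over both forms, *Xbp1* was at 95.1, 98.1 and 92.01 CPM in the D0 libraries and at 96.6, 98.8 and 94.7 CPM in the D5 libraries. The groups overlapped, and the log2 fold change of 0.025 did not pass the test (SE 0.036, 95% interval -0.046 to 0.096, adjusted p = 0.53 in edgeR's test). In TPM, every D5 library was below every D0 library, with means of 92.3 ± 2.24 and 101 ± 3.05 (SD, n = 3 each), so the order of the groups depended on the scale.

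**Figure D2:**
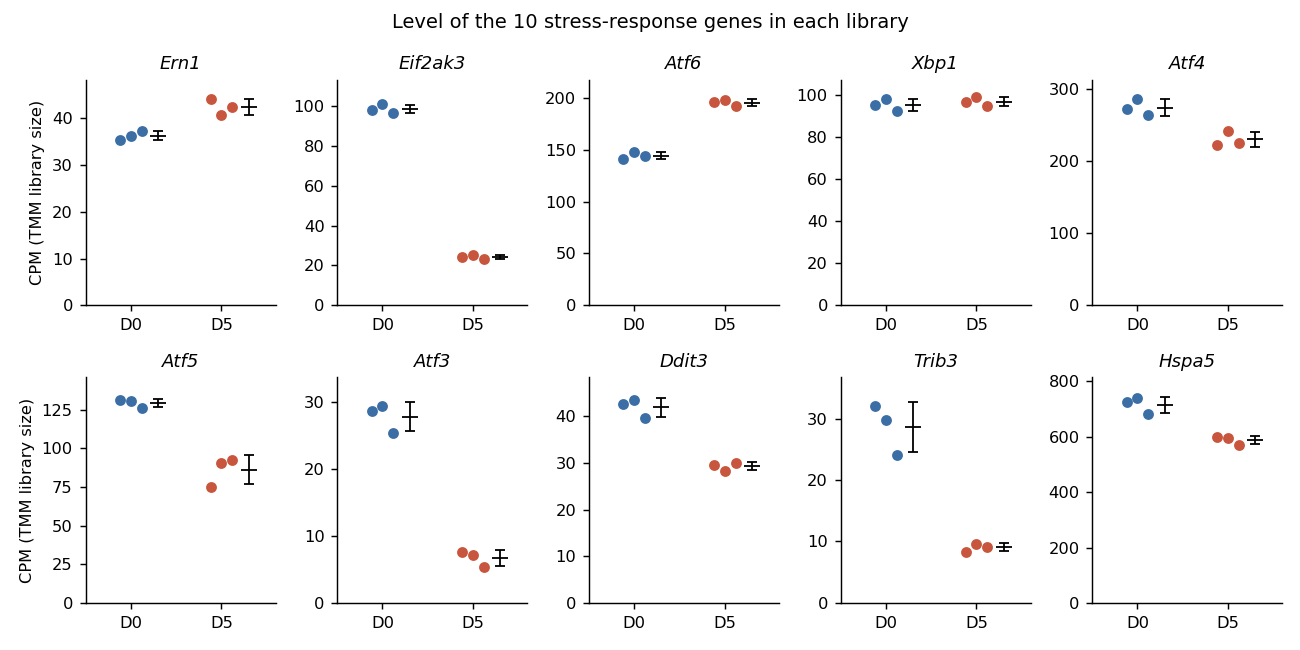
CPM of each of the 10 genes in every library (points, replicates 1, 2 and 3 from left to right in each group), with the mean and SD of the group beside them (n = 3). Each panel has its own axis from 0. The D0 and D5 points overlap only for *Xbp1*, and the D5 points of *Eif2ak3*, *Atf3* and *Trib3* lie far below those of D0.

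Among the transcription factors of the eIF2α branch, *Atf4* changed least and *Atf3* most. *Atf4* (chr15:80255184-80257541, plus strand) encodes the factor whose translation rises when eIF2α is phosphorylated. It stood at 273, 287 and 264 CPM at D0 and 223, 243 and 226 CPM at D5, so the groups did not overlap. The log2 fold change was -0.25 (SE 0.036, adjusted p = 2.38e-07 in edgeR's test). *Atf5* (chr7:44812256-44816658, minus strand), a relative of *Atf4* that is under similar translational control and is linked to mitochondrial stress, was at 131, 131 and 126 CPM at D0 and 75.2, 90.6 and 92.6 CPM at D5. D5 replicate 1 was the lowest, and the D5 libraries varied more (coefficient of variation 11.03%) than the D0 libraries (2.22%). The log2 fold change was -0.59 (SE 0.048, adjusted p = 1.87e-12 in edgeR's test), and 4.11% of the exonic length of *Atf5* is shared with genes of the opposite strand.

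*Atf3* (chr1:191170296-191218039, minus strand) encodes a factor that is induced by many kinds of stress. Its CPM was 28.7, 29.4 and 25.4 at D0 and 7.64, 7.10 and 5.39 at D5, and the highest D5 library was far below the lowest D0 library. It fell by 2.05 on the log2 scale (SE 0.084, adjusted p = 5.96e-20 in edgeR's test), which is 4.14-fold. *Ddit3* (chr10:127290774-127296288, plus strand) encodes CHOP, which promotes cell death when ER stress lasts. It was at 42.6, 43.6 and 39.6 CPM at D0 and 29.6, 28.3 and 30.1 CPM at D5. The D5 libraries were all lower, with a log2 fold change of -0.51 (SE 0.049, adjusted p = 6.06e-11 in edgeR's test). A second row named for *Ddit3* was at 0 counts in all 6 libraries, and 10.9% of the exonic length of *Ddit3* overlaps other gene models, *Mars* among them.

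The downstream genes fell to different degrees. *Trib3* (chr2:152337422-152344032, minus strand) encodes a pseudokinase that is induced by ATF4 and CHOP and holds back insulin signalling through AKT. It was at 32.1, 29.8 and 24.1 CPM at D0 and 8.36, 9.66 and 9.08 CPM at D5. *Trib3* was the most variable of the 10 genes at D0 (coefficient of variation 14.3%), with replicate 3 the lowest, yet all D5 libraries were well below. It fell by 1.66 on the log2 scale (SE 0.086, adjusted p = 2.63e-17 in edgeR's test). *Hspa5* (chr2:34771970-34777547, plus strand) encodes BiP, the main ER chaperone, which binds the sensors and keeps them inactive. Its level was 724, 740.1 and 682 CPM at D0 and 598, 596 and 572 CPM at D5. The groups did not overlap, and the log2 fold change was -0.28 (SE 0.034, adjusted p = 1.00e-08 in edgeR's test).

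Compared per length, *Hspa5* was the most abundant of the 10 transcripts in both groups, at 585 ± 20.8 TPM at D0 and 432 ± 15.9 TPM at D5 (SD, n = 3). *Atf4*, *Atf5* and *Xbp1* followed it in that order in both groups, with no overlap between neighbours over the libraries. At D0 the order went on with *Ddit3* at 84.6 ± 3.58, *Eif2ak3* at 56.6 ± 1.40, *Atf6* at 54.0 ± 1.74, *Trib3* at 46.6 ± 6.03, *Atf3* at 44.6 ± 3.07 and *Ern1* at 15.4 ± 0.653 TPM. The ranges of *Eif2ak3* and *Atf6* overlapped at D0, as did those of *Trib3* and *Atf3*, so the members of these pairs did not differ beyond their spread. At D5 *Atf6* came next after *Xbp1* at 65.6 ± 1.73 TPM, then *Ddit3* at 53.1 ± 2.34 and *Ern1* at 16.1 ± 0.999. *Trib3* at 13.2 ± 0.693 and *Eif2ak3* at 12.5 ± 0.571 TPM overlapped, and *Atf3* was last at 9.67 ± 1.80 TPM. The 10 transcripts together summed to 1615 ± 54.0 TPM at D0 and 1131 ± 17.0 TPM at D5, and *Hspa5* and *Atf4* made up most of both sums.

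**Figure D3:**
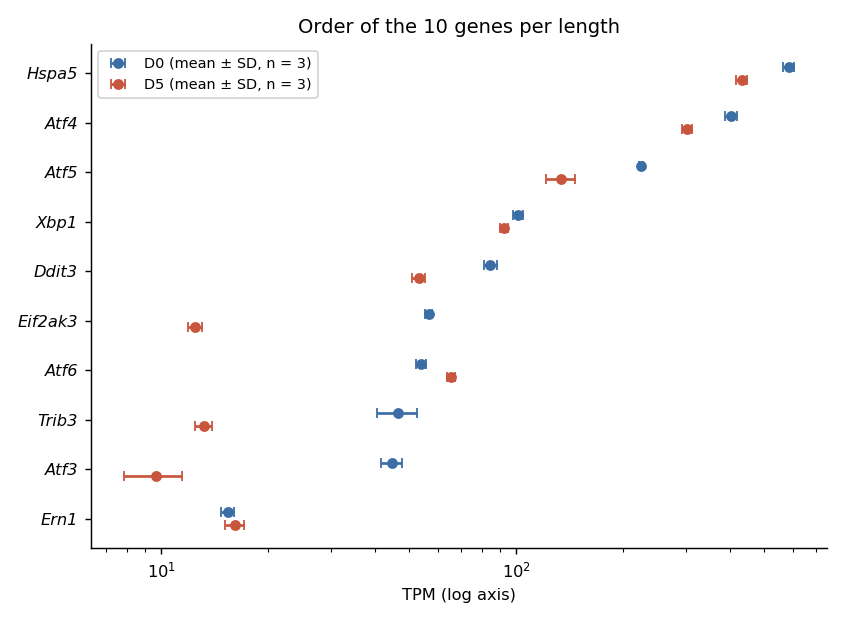
Mean TPM of each of the 10 genes at D0 and D5 on a log axis, with the SD over 3 libraries as bars. *Hspa5*, *Atf4*, *Atf5* and *Xbp1* keep the first places in both groups, and *Eif2ak3* moves from 56.6 TPM, beside *Atf6*, to 12.5 TPM, beside *Trib3*.

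The promoters were searched for elements through which these pathways are known to act, in RefSeq windows from 250 bases before to 50 bases after a gene's start (GRCm38.p6). Windows were matched by symbol for 9 of the 10 genes, all but *Atf6*, and *Atf5* had a second one. On both strands, 4 motifs were searched, namely the ER stress response element (CCAAT, then 9 bases of any kind, then CCACG), the ATF6 and XBP1 element TGACGTGG, the cAMP response element TGACGTCA and the composite C/EBP-ATF element TGATGNAA. The ER stress response element was held by 0.119% of all 32851 promoter windows, TGACGTGG by 0.676%, TGACGTCA by 1.79% and TGATGNAA by 3.97%. Among the 10 genes, *Hspa5* held the ER stress response element and *Atf3* and *Trib3* held the composite element, in both cases on the strand opposite to the gene. The starts are those of RefSeq and differ from the gene starts given above for these 3 genes. The RefSeq start of *Atf3* lies 34706 bases inside the GENCODE gene, that of *Hspa5* lies 120 bases inside, and that of *Trib3* lies 28 bases before the GENCODE gene. The matches are shown in capitals because these are the windows of the 10 genes with a match, and a match is a description of the letters and not a binding site.
*Hspa5*, chr2:34772020-34772049, plus strand, match beginning 65 bases before the RefSeq start: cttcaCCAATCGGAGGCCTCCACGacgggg
*Atf3*, chr1:191183390-191183489, minus strand, match beginning 110 bases before the RefSeq start: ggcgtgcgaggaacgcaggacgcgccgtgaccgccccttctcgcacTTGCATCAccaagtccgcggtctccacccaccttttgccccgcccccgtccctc
*Trib3*, chr2:152344028-152344057, minus strand, match beginning 14 bases after the RefSeq start: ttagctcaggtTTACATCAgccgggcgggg
Over the 10 genes and the pathway lists described next, the ER stress response element was found in the windows of 10 genes, of which 9 were tested, 6 were lower at D5, none was higher and 3 were not called (*Calr*, *Pdia6* and *Syvn1*), with a median log2 fold change of -0.34. The composite element was found in the windows of 18 genes, of which 14 were lower and 4 were higher (*Fgf21*, *Vldlr*, *Nupr1* and *Herpud1*), with a median of -0.65. Of all genes tested, 40.8% were lower and 42.2% were higher. The lists that held most of these genes ran low as a whole. Of their tested genes, 78.6% of ATF4 targets, 70.8% of ER chaperones and 70% of synthetases were lower. The counts therefore do not separate either element from its list. The element TGACGTGG was found in the windows of 6 genes, of which 4 were lower and 2 were higher (median -0.45). TGACGTCA was found in the windows of 2 genes, of which 1 was lower and 1 was not called (median -0.13). Not every list gene had a window, with 13 windows for the 20 synthetase genes. These genes were picked by their letters from lists of pathway genes, and no test was made of the counts.

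The regulators around the 10 genes were compared next, to place *Eif2ak3* among the other kinases of eIF2α and *Atf6* beside its relative. Of 19 such genes 18 were tested, of which 7 were higher, 9 were lower and 2 were not called, with a median log2 fold change of -0.09. These shares, 38.9% higher and 50% lower, were near those of all genes tested (42.2% and 40.8%), and with spike-in scaling none was called higher and 1 was called lower. The counts of the lists that follow are described beside the same background, and no list was tested against it. *Eif2ak1*, which encodes the heme-regulated kinase HRI, rose from 38.4, 38.5 and 38.8 CPM at D0 to 64.0, 61.0 and 57.8 CPM at D5 (log2 fold change 0.66, SE 0.043, adjusted p = 1.11e-14 in edgeR's test). Of its exonic length, 11.6% is shared with the opposite-strand genes *Aimp2* and *Ankrd61*, and reads from these cannot be told apart there. *Eif2ak2* (PKR) and *Eif2ak4* (GCN2) fell slightly, by 0.40 and 0.27 on the log2 scale. *Eif2ak3* went from 46.3% ± 0.586 of the summed TPM of the 4 kinase transcripts at D0 to 16.6% ± 0.623 at D5, and *Eif2ak1* from 19.2% ± 0.358 to 44.2% ± 1.13 (SD, n = 3). These shares did not overlap between the groups, and the smallest two-sided p of an exact permutation test with 3 libraries per group is 0.1.

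**Figure D4:**
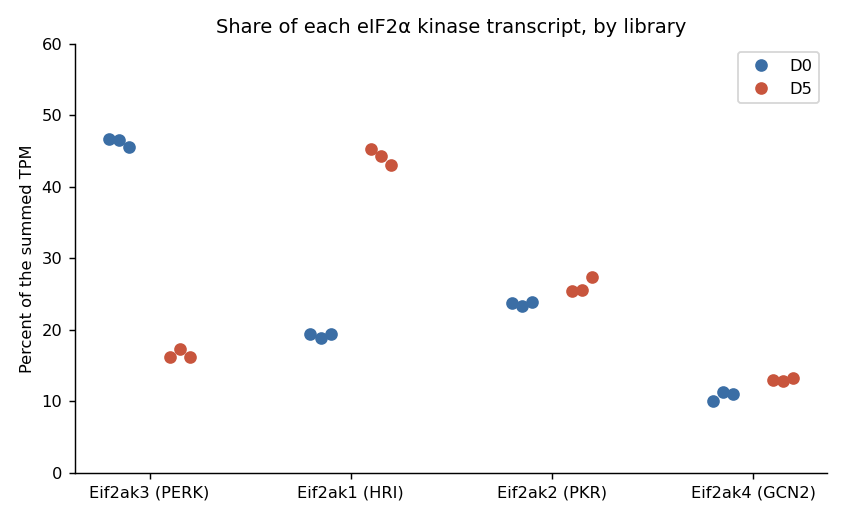
Share of each of the 4 eIF2α kinase transcripts in their summed TPM, as a percentage, in each library at D0 and D5 (replicates 1, 2 and 3 from left to right). *Eif2ak3* holds the largest share at D0 (45.6% to 46.8%) and *Eif2ak1* the largest at D5 (43.1% to 45.3%).

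On the side of eIF2α dephosphorylation and recycling, *Ppp1r15b*, which encodes the constitutive subunit that brings a phosphatase to eIF2α, fell by 1.03 on the log2 scale to 49.0% of D0, and *Ppp1r15a*, its stress-induced counterpart GADD34, fell by 0.32. Of the exonic length of *Ppp1r15b*, 11.4% is shared with an opposite-strand gene model. With TMM the eIF2B subunit gene *Eif2b4* rose by 0.63, and of the other 4 subunits of this exchange factor 3 rose and *Eif2b3* was not called (0.073, adjusted p = 0.18 in edgeR's test). None of these rises was called with spike-in scaling, where *Eif2b4* was at 0.070 (adjusted p = 0.93 in edgeR's test). *Nck1*, an adaptor linked to eIF2α dephosphorylation, rose by 0.62. *Mbtps1*, which encodes the first protease that cuts ATF6, fell by 0.62 to 65.3% of D0. *Atf6b*, the paralog of *Atf6*, was not called (-0.048, adjusted p = 0.32 in edgeR's test), and *Atf6* went from 51.2% ± 0.204 to 59.5% ± 1.16 of the summed TPM of the pair (SD, n = 3).

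The ER chaperones and folding enzymes, many of them targets of ATF6 and XBP1, were more often called lower than higher with TMM. Of 24 such genes other than *Hspa5*, 17 were lower (70.8%, against 40.8% of all genes tested), 4 were higher (16.7%, against 42.2%) and 3 were not called. The median log2 fold change was -0.41 against 0.0022 over all genes tested, and with spike-in scaling 6 were called lower and none higher. *Hsp90b1*, which encodes the ER chaperone GRP94, fell from 892 ± 25.1 to 402 ± 4.63 CPM (SD, n = 3 per group), a log2 fold change of -1.15 (SE 0.033, adjusted p = 4.21e-24 in edgeR's test). Other gene models share 15.7% of its exonic length. *Pdia5*, a protein disulfide isomerase gene, fell the most, to 21.6% of D0 (-2.21 on the log2 scale), and *Ero1lb*, an ER oxidase gene, fell to 44.7%. Against this direction *Dnajb9*, which encodes the BiP co-chaperone ERdj4 and is a known target of XBP1, rose 2.31-fold. *Sil1*, which encodes a nucleotide exchange factor of BiP, rose 2.01-fold, and *Fkbp14* rose 1.52-fold. *Hspa5* made up 10.4% ± 0.237 of the summed TPM of the 25 genes at D0 and 11.3% ± 0.289 at D5.

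The genes of ER-associated degradation, which draws misfolded proteins out of the ER for the proteasome, were more often called higher than lower with TMM. Of 21 tested, 14 were higher (66.7%, against 42.2% of all genes tested), 6 were lower (28.6%, against 40.8%) and 1 was not called, with a median log2 fold change of 0.17, whereas with spike-in scaling none was called higher and 1 was called lower. *Herpud1*, which encodes a stress-induced scaffold of the retrotranslocation complex, went from 46.0, 50.1 and 45.3 CPM at D0 to 109.7, 117 and 113 CPM at D5 (log2 fold change 1.26, SE 0.041, adjusted p = 1.76e-22 in edgeR's test). *Fam8a1*, another partner of that complex, rose 2.49-fold, and *Ube2g2*, a ubiquitin-conjugating enzyme gene, rose 1.99-fold. Gene models of the same strand share 10.3% of the exonic length of *Ube2g2*. *Edem1*, a mannosidase-related gene that is a known target of XBP1, fell to 43.4% of D0, and *Erlin1* and *Erlin2* fell to 62.8% and 66.8%. For protein entry into the ER, 14 of 21 genes were lower (66.7%, against 40.8% of all genes tested) and 7 were higher (33.3%, against 42.2%). The median was -0.21, and fewer were called with spike-in scaling, as given below. On the lower side were the translocon genes *Sec61a1* (-1.04) and *Sec61b* (-1.02) and the translocon-associated *Ssr1* (-0.65). On the higher side were *Spcs1* (1.07, signal peptidase), *Sec62* (0.60) and *Srpr* (0.49, but -0.086 with spike-in scaling). Opposite-strand gene models share 16.3% of the exonic length of *Spcs1* and 11.7% of that of *Sec62*.

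Genes known as targets of ATF4 showed the lowest median of the pathway lists, -0.98. Of the 28 genes, 22 were lower (78.6%, against 40.8% of all genes tested) and 6 were higher (21.4%, against 42.2%), and 14 fell by more than 1 on the log2 scale, as did 16.0% of all genes tested. With spike-in scaling 19 were called lower and 2 higher. Of the genes of amino acid synthesis and transport, *Slc7a11*, which encodes the cystine transporter, fell to 17.2% of D0 (-2.54). The secreted stress factors moved apart. *Gdf15* was at 17.5, 16.4 and 15.2 CPM at D0 and 2.47, 2.96 and 2.65 CPM at D5, a log2 fold change of -2.60 (SE 0.098, adjusted p = 7.95e-21 in edgeR's test). *Stc2*, a stanniocalcin gene, fell 13.3-fold. *Fgf21*, a hormone gene that is also a known product of stressed muscle, was at 0.374, 0.714 and 0.894 CPM at D0 and 56.7, 64.8 and 58.3 CPM at D5, a log2 fold change of 6.48 (SE 0.10, adjusted p = 1.61e-30 in edgeR's test). *Vldlr*, a lipoprotein receptor gene, rose by 5.22 on the log2 scale and *Cebpb*, which encodes a transcription factor that pairs with ATF4, by 1.498, with 20.7% of the exonic length of *Cebpb* shared with another gene model. The D5 libraries of *Cebpb* varied, at 47.4, 69.3 and 70.5 CPM (coefficient of variation 20.9%), with replicate 1 the lowest. Its rise was not called with spike-in scaling (0.95, adjusted p = 0.15 in edgeR's test).

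Of 20 genes of cytosolic aminoacyl-tRNA synthetases, many of which ATF4 also induces, 14 were lower, 2 were higher (*Farsa* 0.52 and *Qars* 0.29, but -0.042 and -0.26 with spike-in scaling) and 4 were not called, with a median of -0.25. These shares were 70% lower and 10% higher, against 40.8% and 42.2% of all genes tested. *Vars*, *Yars* and *Aars* fell the most by the naming rule, to 43.1%, 55.4% and 58.5% of D0. Other gene models share 15.1% of the exonic length of *Aars*. Among the CREB3 family and the other partners of ATF factors, 14 of 18 were tested, 5 were higher, 8 were lower and 1 was not called (median -0.16). Of those tested, 57.1% were lower and 35.7% higher, beside the same 40.8% and 42.2%. The AP-1 genes moved apart, with *Junb* rising 3.81-fold, *Jun* falling to 49.7% of D0 and *Fosl1* falling to 15.4%, although 57.2% of the exonic length of *Fosl1* is shared with another gene model. *Nfe2l1*, which encodes the ER-anchored factor NRF1 that drives proteasome genes, rose 3.33-fold, from 352 ± 16.0 to 1169.9 ± 28.4 CPM (SD, n = 3 per group). With spike-in scaling the rise of *Nfe2l1* was not called (1.16, adjusted p = 0.067 in edgeR's test). That of *Junb* still was (1.35, adjusted p = 0.033 in edgeR's test). *Creb3* rose by 0.50 with TMM (-0.060 with spike-in scaling) and *Crebzf* fell by 0.99 on the log2 scale. Of the exonic length of *Creb3*, 20.8% is shared with opposite-strand gene models.

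The chaperones of other compartments differed by list. Of 12 mitochondrial chaperone and protease genes, 5 were higher, 6 were lower and 1 was not called (median -0.04). These shares, 41.7% higher and 50% lower, were near those of all genes tested (42.2% and 40.8%). *Hspd1* and *Hspe1*, which encode the partners HSP60 and HSP10, fell to 39.1% and 48.7% of D0 and *Hspa9* to 74.99%. The protease genes *Clpx* and *Afg3l2* rose 1.98-fold and 1.80-fold and *Dnaja3* rose 1.39-fold (its log2 value was -0.11 with spike-in scaling). With spike-in scaling the falls of *Hspd1* and *Hspe1* were still called. *Hspa9*, *Clpx* and *Afg3l2* kept their direction without a call (adjusted p = 0.13, 0.54 and 0.69 in edgeR's test). Of 12 genes of the cytosolic heat shock response, 6 were lower, 1 was higher (*Bag3*, 0.17, but -0.41 with spike-in scaling) and 5 were not called (median -0.13). Here 50% were lower and 8.33% higher, against 40.8% and 42.2% of all genes tested, so fewer were higher than in the background. *Hsp90aa1* fell by 1.76 on the log2 scale, to 29.6% of D0, *Hsf1*, the master factor of that response, fell to 66.0%, and *Hsph1* fell to 81.5%.

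Death genes linked to ER stress, some of them targets of CHOP, numbered 13 among the genes tested. With TMM 8 were higher (61.5%, against 42.2% of all genes tested) and 5 were lower (38.5%, against 40.8%), with a median of 0.47, whereas with spike-in scaling none was called higher and 2 were called lower. *Ddit3* itself was lower with TMM, as given above. The higher ones included genes that protect and genes that promote death. *Bcl2l1*, which encodes the protective protein BCL-XL, rose 3.08-fold, and *Traf2*, an adaptor that binds IRE1α, rose 2.49-fold. *Pmaip1*, which encodes the death-promoting protein NOXA, rose 1.93-fold. The effector genes *Bak1* and *Bax* fell to 43.8% and 65.8% of D0. Other gene models share 25.5% of the exonic length of *Bak1* and 12.2% of that of *Bax*. *Tnfrsf10b*, a death receptor gene and known target of CHOP, fell to 60.8%.

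**Figure D5:**
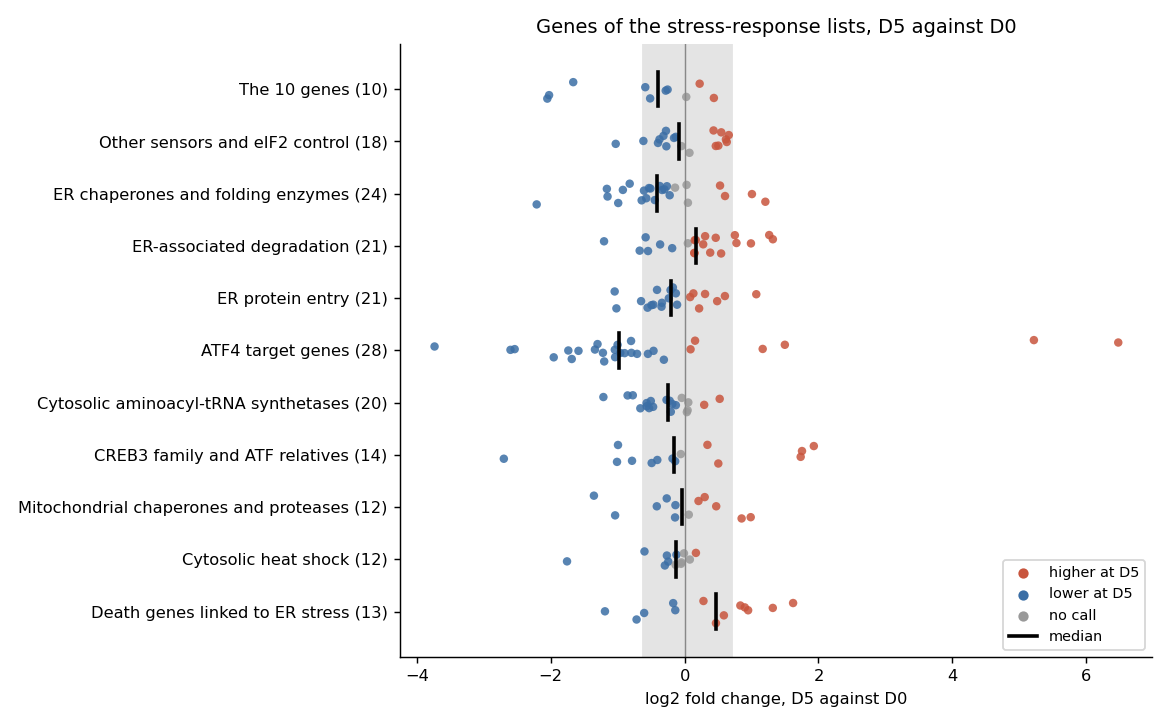
Log2 fold change, D5 against D0 with TMM scaling, of every tested gene of the 10 genes and of the 10 pathway lists (number tested in brackets). Red points were called higher, blue points lower and grey points not called, black bars are medians, the vertical position within a list has no meaning, and the grey band spans the lower to the upper quartile of all genes tested. ATF4 target genes have the lowest median (-0.98) and also hold the highest points, *Fgf21* (6.48) and *Vldlr* (5.22).

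The genes whose levels moved most like those of *Atf6* and *Atf3*, the members with the largest rise and the largest fall, were found by the Euclidean distance of log2(CPM + 1) over the 6 libraries after subtracting each gene's mean, among 11886 genes whose mean reached 100 counts in either group. Nearest to *Atf6* were *Stard7*, a lipid transfer gene, *Eaf1*, a gene of transcription elongation, and *Apc*, a regulator of Wnt signalling, with log2 fold changes of 0.41, 0.44 and 0.41 and distances from 0.0432 to 0.0456. Nearest to *Atf3* were *Tipin* and *Rfc3*, genes of DNA replication, and *4930579G24Rik*, with log2 fold changes of -2.01, -2.05 and -2.39 and distances from 0.172 to 0.227, so the match to *Atf3* was less close. None of these 6 genes was on a pathway list. With 6 libraries in 2 groups, such a likeness rests mostly on the size of the difference between the groups.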

How the data were processed

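RNA-seq of 3 D0 and 3 D5 samples of C2C12 cells was used. Per the labels, the authors used featureCounts for reads on genes of GRCm38 (mm10) and deposited raw counts, and the labels' processing notes also list DESeq2 1.6.3. The labels and the study's methods name different aligners (Tophat2 and HISAT2). The annotation release, strand setting and handling of multiply mapped reads are not given in the sources used here. A row without a name equalled the total of the other rows (50.0% of each column's sum) and was left out, as were the 92 spike-in rows.

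TMM-scaled CPM, TPM (with exonic lengths of the GENCODE annotation of GRCm38, to which 99.9% of gene rows matched by identifier) and tests with edgeR 4.0.16 (quasi-likelihood, R 4.3.3, filterByExpr, Benjamini-Hochberg, threshold 0.05) were computed from the deposited counts. Standard errors are the size of the log2 fold change over the root of the F statistic. Replicates differed by more than sampling noise (chi-square between 2.28 and 3.71 per degree of freedom in all pairs). Each library was counted as 1 sample, although such a spread does not show that the cultures were separate. The alternatives were DESeq2 1.42.0, upper-quartile, total-count and ERCC scaling, no filter, at least 10 counts in every library, a block for the replicate number, each library left out in turn, and TPM for overlap counts. The fits were tested on simulated data.

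The 10 genes and the lists were chosen with earlier results of these data known. Named were the 10 genes, the markers, in each list the top 3 called genes by rise and the top 3 by fall whose mean reached 100 counts in a group and whose groups did not overlap, and the 3 genes nearest to each extreme member. *Eif2ak4*, *Ppp1r15a*, *Eif2b3*, *Atf6b*, *Calr*, *Pdia6*, *Syvn1* and *Nupr1* were named beside this rule, after their values were seen. Of 2 matches to the letters of the IRE1 sites in *Xbp1*, the one whose removal lengthened the reading frame was taken. Positions and promoter sequences are from GENCODE and RefSeq for GRCm38.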

Additional observations from a re-analysis of the deposited data

How the results depend on the processing

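Scaling to the ERCC spike-ins was the alternative that moved the results. With it, 5560 genes were past the threshold in place of 13510, and of the 10 genes 0 were called higher and 3 lower in place of 2 and 7. *Eif2ak3*, *Atf3* and *Trib3* kept their calls, *Atf4*, *Atf5*, *Ddit3* and *Hspa5* stayed negative but lost them (adjusted p = 0.23, 0.073, 0.092 and 0.20 in edgeR's test), and *Atf6* (-0.12), *Ern1* (-0.36) and *Xbp1* (-0.53) turned negative on the log2 scale without a call. Of the other named list genes, *Bag3* (-0.41), *Qars* (-0.26), *Dnaja3* (-0.11), *Srpr* (-0.086), *Creb3* (-0.060) and *Farsa* (-0.042) turned negative, and 27 kept their direction without a call, *Eif2ak1* and *Herpud1* among them. Numbers called higher and lower became 0 and 1 for the other sensors and eIF2 control, 0 and 6 for ER chaperones, 0 and 1 for ER-associated degradation, 0 and 2 for ER protein entry, 0 and 3 for the synthetases, 1 and 4 for the CREB3 family and ATF relatives, 0 and 2 for mitochondrial chaperones, 0 and 1 for cytosolic heat shock and 0 and 2 for the death genes, and 2 and 19 for ATF4 target genes (6 and 22 with TMM). The cause of the lower spike-in scaled values was not tested.

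The other alternatives changed no call of the 10 genes. *Xbp1*, not called in any, turned negative with total counts (-0.060) and with no filter (-0.029), and ran from -0.011 (without D0 replicate 3) to 0.042 when single libraries were left out. The number of cytosolic heat shock genes called higher ran from 1 to 2 when single libraries were left out, with 2 without D5 replicate 2. In TPM, 1 of the 10 genes was higher without overlap (*Atf6*) in place of 2, and 8 in place of 7 were lower. Deviations from the group means of same-numbered D0 and D5 libraries correlated at 0.0084, 0.13 and 0.062 over 11316 genes. D0 replicates 2 and 3 correlated best with their own number, and D0 replicate 1 with D5 replicate 3 (0.017). These values do not settle whether the numbers mark pairs, and they were not taken as pairs. With the replicate number as a block, 13558 genes were past the threshold and no call of the 10 genes changed.

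The lowest count behind a value of the 10 genes was 134 (*Atf3*, D5 replicate 3), so depth limited *Atf3* more than the others at D5.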
